A study of Mus musculus with 16 samples.

Results

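Liver zonation genes were followed in 16 mouse livers, each read on 1 Affymetrix MoGene 1.0 ST array, a whole-transcript microarray. The set was chosen by name from textbook zone markers, with earlier results of these data known. It holds 6 genes of the pericentral zone (Glul, Oat, Axin2, Lgr5, Rhbg and Slc1a2) and 4 of the periportal zone (Hal, Gls2, Ass1 and Arg1). A gene was read from the probe set that carries its symbol and no other, and the probe set with the highest mean was used where there were several. This gave values for 8 of the 10 genes among 19938 genes in all: 6 of 6 pericentral and 2 of 4 periportal (Hal and Arg1). Gls2 had no matched probe set, and the 2 probe sets of Ass1 also carry the symbol Gm5424, so neither gene has a value here.

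The study crossed genotype with diet in a mouse model of fatty liver with lowered hedgehog signalling. Adult mice that were wild type or heterozygous for a Gli2 null allele (Gli2 is a transcription factor of the hedgehog pathway) were fed either control or high-fat chow over 12 weeks, which makes 4 groups of 4 animals. The wild-type animals are labelled by Gli1, not Gli2, and are taken as wild type. The sources used here do not give strain, sex, exact age or which part of Gli2 the null allele lacks. The tissue is whole liver, so fewer cells of a type and less RNA per cell cannot be told apart.

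Hepatocytes divide labour along the blood flow from the portal vein to the central vein. Cells near the portal vein carry most of the urea cycle and break down glutamine and histidine, and a thin ring of cells around the central vein captures the ammonia that is left and fixes it as glutamine. The pericentral programme depends on Wnt/beta-catenin signalling, fed by Wnt ligands and R-spondins from endothelial cells of the central vein.

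Values are deposited log2 RMA levels, relative within a probe set, so a difference of 1 is a change of 2-fold and levels of different genes are not set against each other. Differences were tested with limma, adjusted by the Benjamini-Hochberg method over the 19938 genes, and an adjusted p under 0.05 counts as a call. The 9 hepatocyte markers measured had mean log2 levels of 13.44, 13.44, 13.45 and 13.42 in the wild-type control, heterozygous control, wild-type high-fat and heterozygous high-fat groups. Animal 2 of the heterozygous control group (Het_control 2) stood apart: its correlation with the other arrays over all genes was 0.961 to 0.979, against 0.991 to 0.998 among the other 15. Results are therefore also given without it where it matters. Animal 4 of the heterozygous control group (Het_control 4) had the largest effect on the number of calls: without it, diet over both genotypes called 1754 genes and diet in heterozygotes 3446, against 371 and 442 with all arrays. Without Het_control 2 the same comparisons called 491 higher and 221 lower, and 116 higher and 58 lower. Gli2 itself had log2 levels of 7.57 ± 0.02 and 7.70 ± 0.30 (SD, n = 4) in wild-type and heterozygous controls, and 7.51 ± 0.08 and 7.53 ± 0.07 on the high-fat diet. Its genotype differences were 0.13 (adjusted p = 0.447, limma) and 0.02 (adjusted p = 0.9996, limma); as the deleted part is not given, this probe set does not check the genotype labels.

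The first question was whether the high-fat diet moved the zonation genes. Averaged over both genotypes, 1 of the 8 measured genes was called: the pericentral ammonium transporter Rhbg rose 1.45-fold. The share of all genes called in this comparison was 1.86 percent (371 of 19938, 269 higher and 102 lower; 155 and 119 after a repeated quantile normalization). At an unadjusted p under 0.05 there were 3 members, Rhbg, Oat and Slc1a2, all higher on the high-fat diet, where 26.9 percent of all genes pass that level in either direction. Of the 6 pericentral genes 5 had the higher value on the high-fat diet, with a median difference of 0.18, beside a median of -0.04 over all genes, of which 40.4 percent were higher. Bright genes were mostly higher: of the 3822 genes with a mean log2 level of at least 10, 76.9 percent were, with a median of 0.09. Without Het_control 2 the members' count was 4 of 6 with a median of 0.15, beside 67.1 percent and 0.04 for the bright genes. After a repeated quantile normalization it was 4 of 6 with a median of 0.10, beside 52.6 percent and 0.01 for the bright genes. Hal and Arg1, the 2 periportal genes, differed by 0.06 and -0.04.

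Rhbg, which carries ammonium across the hepatocyte membrane next to the central vein, gave the clearest difference. In wild-type controls it read 10.11, 10.06, 9.82 and 9.57, and in wild-type high-fat mice 10.26, 10.11, 10.70 and 10.22. Every wild-type animal on the high-fat diet lay above every wild-type control, by a narrow margin at 10.11. Rhbg was the 1 member without overlap in this comparison, in which 8.5 percent of all genes do not overlap. In heterozygous controls Rhbg read 9.52, 9.43, 9.96 and 10.06, and in high-fat heterozygotes 10.38, 10.01, 10.79 and 10.37. Here 3 of the 4 high-fat animals lay above all controls, and animal 2 of the high-fat group, at 10.01, fell below the highest control.

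The diet difference of Rhbg was 0.43 in wild type (SE 0.18, adjusted p = 0.663, limma) and 0.64 in heterozygotes (SE 0.18, adjusted p = 0.0593, limma). Neither passed the threshold alone. Over both genotypes it was 0.54 (SE 0.12, 95 percent interval 0.27 to 0.80, adjusted p = 0.0386, limma), and it was higher in both genotypes. The 2 diet effects differed by 0.21 (SE 0.25, adjusted p = 0.769 for the interaction, limma). The size of the Rhbg difference held under all 25 other settings, at 0.46 to 0.60, whereas the call did not: the adjusted p lay between 0.00334 and 0.0829 and was under the threshold in 12 of the 25. It was lost after a repeated quantile normalization (0.46, adjusted p = 0.0770, limma) and when any 1 of 11 animals was left out (adjusted p = 0.0529 to 0.0829, limma): wild-type controls 1 to 4, heterozygous control 1, and animals 1, 3 and 4 of each high-fat group. Without Het_control 2 it was 0.49 (adjusted p = 0.0380, limma).

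**Figure D1:**
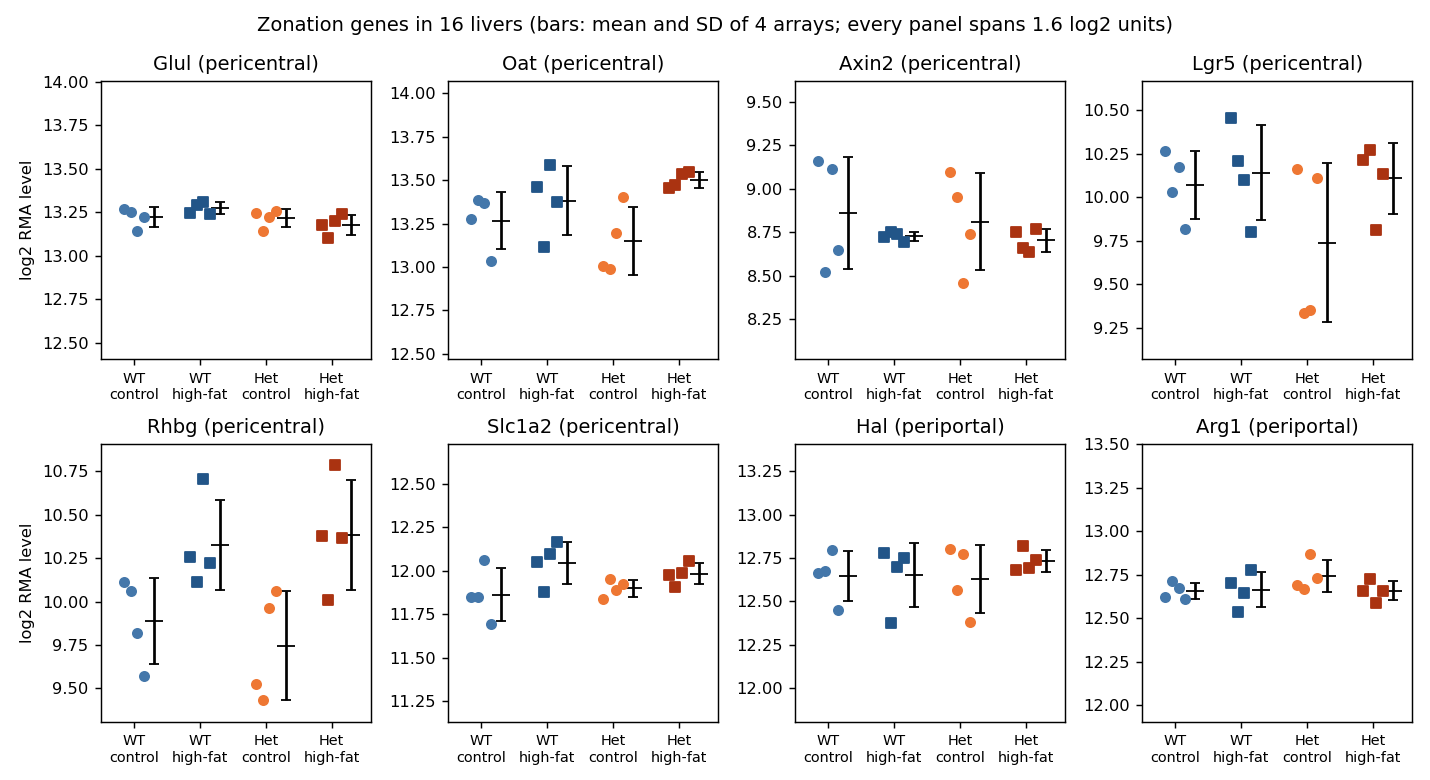
Log2 RMA levels of the 8 measured zonation genes in each of 16 livers by genotype and diet; points are animals, bars are the mean and SD of 4 animals, and every panel spans the same height. The high-fat groups of Rhbg average 10.32 and 10.39 against 9.89 and 9.74 in the control groups. Glul and Arg1 stay within narrow bands in all groups, and the wider Hal groups overlap.

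**Figure D2:**
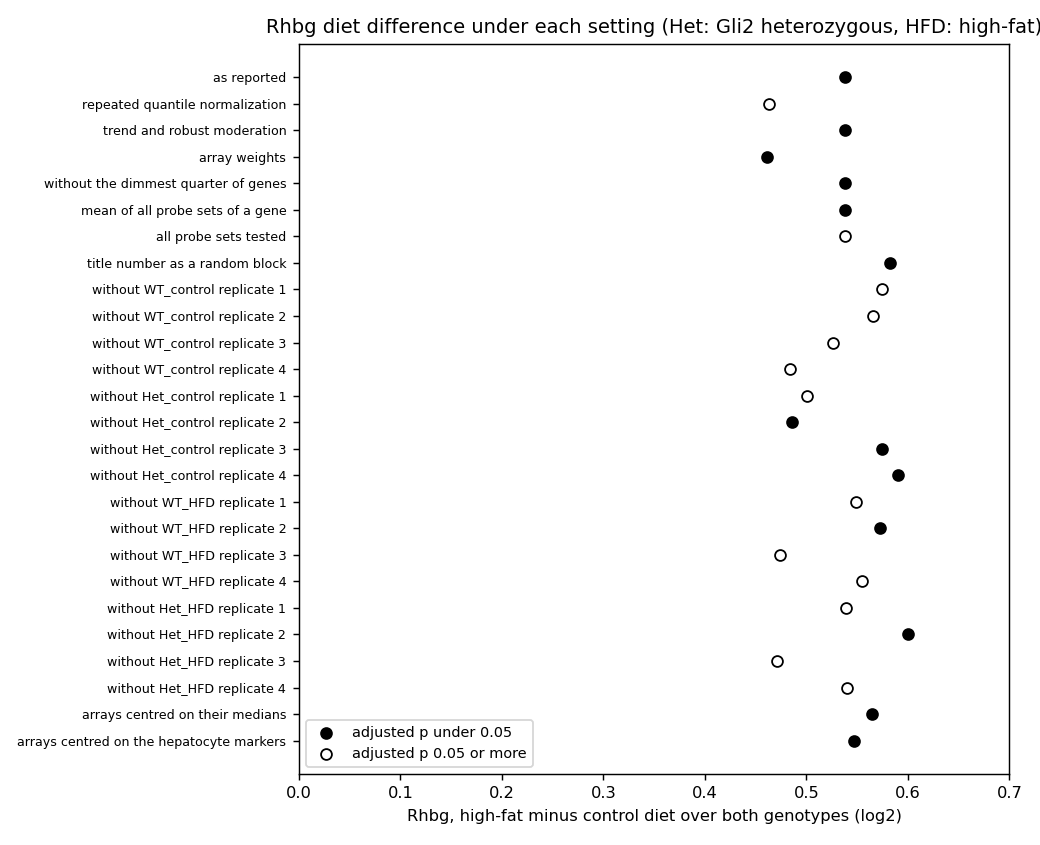
Rhbg, high-fat minus control diet over both genotypes (log2), as reported and under 25 other settings; filled points have an adjusted p under 0.05 and open points do not. The difference stays between 0.46 and 0.60 and the points change between filled and open.

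Oat, the mitochondrial ornithine aminotransferase that feeds ornithine into glutamate in pericentral cells, was the other gene with separated groups. In heterozygous controls it read 13.01, 12.99, 13.20 and 13.40, and in high-fat heterozygotes 13.45, 13.47, 13.53 and 13.55. All 4 high-fat heterozygotes lay above all 4 heterozygous controls and sat close together (13.50 ± 0.05 against 13.15 ± 0.19, SD, n = 4). Oat was the 1 member without overlap in that comparison, beside 13.7 percent of all genes. Its difference in heterozygotes was 0.35 (SE 0.11, adjusted p = 0.0721, limma) and did not pass the threshold. Without Het_control 4, the highest of its group, it was 0.44 (adjusted p = 0.0174, limma), and that of Rhbg was 0.75 (adjusted p = 0.0188, limma). Both also passed when the title number was a random block: Oat at 0.37 (adjusted p = 0.0140, limma) and Rhbg at 0.65 (adjusted p = 0.00814, limma). These settings called many more genes in all: 3446 of 19938 without Het_control 4 and 6938 with the block, against 442 as reported. The block fit used a within-number correlation of -0.37. A negative value lowers the SE of a group mean where animals of the same group share a number. No member was called in heterozygotes, where 2.22 percent of all genes were (300 higher and 142 lower; 204 and 167 after a repeated quantile normalization). At an unadjusted p under 0.05, Rhbg and Oat passed, 2 of 8, beside 31.6 percent of all genes.

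In wild-type livers Oat read 13.28, 13.39, 13.37 and 13.04 on the control diet and 13.46, 13.11, 13.59 and 13.37 on the high-fat diet. These groups overlapped widely. The difference was 0.11 (SE 0.11, adjusted p = 0.933, limma) in wild type and 0.23 (SE 0.08, adjusted p = 0.101, limma) over both genotypes; without Het_control 4 the latter was 0.28 (adjusted p = 0.0296, limma), and with the title number as a block 0.27 (adjusted p = 0.0181, limma). For diet over both genotypes those 2 settings called 1754 and 3703 of all 19938 genes, against 371 as reported. The interaction of 0.24 (SE 0.15, adjusted p = 0.647, limma) did not pass, so the diet effects were not shown to differ between genotypes. No gene passed the interaction test (0 percent of 19938, against 1621 genes at an unadjusted p under 0.05), and no member had an unadjusted p under 0.05 in it.

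Glul, the glutamine synthetase of the innermost pericentral ring, was not called in any comparison. It read 13.27, 13.25, 13.14 and 13.22 in wild-type controls and 13.25, 13.29, 13.31 and 13.24 in wild-type high-fat mice. In heterozygotes it read 13.25, 13.14, 13.22 and 13.26 on the control diet and 13.17, 13.10, 13.20 and 13.24 on the high-fat diet. All 16 values fall between 13.10 and 13.31. Its diet difference over both genotypes was 0.01 (SE 0.04, 95 percent interval -0.08 to 0.09, adjusted p = 0.918, limma).

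Slc1a2, the high-affinity glutamate transporter of pericentral hepatocytes, read 11.85, 11.85, 12.06 and 11.69 in wild-type controls and 12.05, 11.88, 12.10 and 12.16 in wild-type high-fat mice. In heterozygotes it read 11.84, 11.95, 11.89 and 11.92 on the control diet and 11.98, 11.91, 11.99 and 12.06 on the high-fat diet. The diet groups overlapped in both genotypes. The difference was 0.18 in wild type (SE 0.08, adjusted p = 0.717, limma), 0.08 in heterozygotes (SE 0.08, adjusted p = 0.430, limma) and 0.13 over both (SE 0.05, 95 percent interval 0.02 to 0.25, adjusted p = 0.154, limma). The last was 0.15 under array weights (adjusted p = 0.0476, limma) and with the title number as a block (adjusted p = 0.0445, limma). Those settings called 2105 and 3703 of all 19938 genes in that comparison, against 371 as reported. In wild type no member was called and no gene was (0 percent of 19938). Rhbg and Slc1a2, 2 of 8, passed an unadjusted p under 0.05 there, beside 6.43 percent of all genes (1282).

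The Wnt-responsive members Axin2 and Lgr5 were not called in any comparison. Axin2, a scaffold of the beta-catenin destruction complex that Wnt signalling itself induces, read 9.16, 8.52, 9.11 and 8.65 in wild-type controls and 9.10, 8.95, 8.46 and 8.74 in heterozygous controls. On the high-fat diet it read 8.72, 8.75, 8.74 and 8.69 in wild type and 8.75, 8.66, 8.64 and 8.77 in heterozygotes. The controls were spread on both sides of the narrow high-fat groups: the SDs were 0.32 and 0.28 on the control diet and 0.03 and 0.07 on the high-fat diet, a difference in spread that was not tested. The diet difference over both genotypes was -0.12 (SE 0.10, 95 percent interval -0.32 to 0.08, adjusted p = 0.375, limma).

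Lgr5, the R-spondin receptor that strengthens Wnt signalling, read 10.27, 10.03, 10.18 and 9.82 in wild-type controls and 10.46, 10.21, 10.10 and 9.80 in wild-type high-fat mice. In heterozygotes it read 10.16, 9.34, 9.35 and 10.11 on the control diet and 10.21, 10.28, 9.81 and 10.13 on the high-fat diet. The heterozygous controls split into 2 low animals (2 and 3) and 2 within the range of the other groups. The low animals share the number in their sample titles, the only pair of that group that does; the labels do not state what it means. The diet difference in heterozygotes was 0.37 (SE 0.19, 95 percent interval -0.02 to 0.76, adjusted p = 0.175, limma) and in wild type 0.07 (SE 0.19, adjusted p = 0.977, limma). The former was 0.24 without animal 2 (adjusted p = 0.496, limma) and 0.24 without animal 3 (adjusted p = 0.332, limma).

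The groups of both periportal genes overlapped in every comparison. Hal, histidine ammonia-lyase, which opens histidine breakdown, read 12.66, 12.67, 12.80 and 12.45 in wild-type controls and 12.78, 12.38, 12.70 and 12.75 in wild-type high-fat mice. In heterozygotes Hal read 12.80, 12.56, 12.77 and 12.38 on the control diet and 12.68, 12.82, 12.70 and 12.74 on the high-fat diet. Its diet difference over both genotypes was 0.06 (SE 0.07, 95 percent interval -0.10 to 0.21, adjusted p = 0.584, limma).

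Arg1, the arginase that completes the urea cycle, read 12.62, 12.71, 12.67 and 12.61 in wild-type controls and 12.70, 12.54, 12.64 and 12.78 in wild-type high-fat mice. In heterozygotes it read 12.69, 12.67, 12.87 and 12.73 on the control diet and 12.66, 12.72, 12.59 and 12.66 on the high-fat diet. The groups overlapped throughout, with a diet difference over both genotypes of -0.04 (SE 0.05, 95 percent interval -0.13 to 0.06, adjusted p = 0.557, limma).

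The next question was whether loss of 1 Gli2 copy moved the zonation genes. No member was called on the control diet, where no gene was (0 percent), or on the high-fat diet, where 0.00502 percent (1 gene) was. No member had an unadjusted p under 0.05 in either genotype comparison, beside 15.7 percent of all genes (3135) on the control diet and 3.57 percent on the high-fat diet. Over both diets no member was called either, beside 0.00502 percent of all genes (1 gene, with 1548 at an unadjusted p under 0.05). On the control diet no member had groups without overlap, against 6.12 percent of all genes. The test for any difference among the 4 groups called none of the 8 members, beside 0.326 percent of all genes (65, with 4248 at an unadjusted p under 0.05). Rhbg (adjusted p = 0.135, limma) and Oat (adjusted p = 0.200, limma) came closest in it, and without Het_control 4 Rhbg passed (adjusted p = 0.0469, limma).

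Lgr5 had the largest genotype difference on the control diet in value, -0.33 (SE 0.19, 95 percent interval -0.73 to 0.06, adjusted p = 0.346, limma), with animals 2 and 3 of the heterozygous controls, which share a title number, below the rest. It was -0.20 without either of them (adjusted p = 0.837 without animal 2 and 0.467 without animal 3, limma). On the high-fat diet Lgr5 differed by -0.03 (SE 0.19, adjusted p = 0.9996, limma). Of the 6 pericentral genes 5 had the lower value in heterozygous controls, with a median of -0.08, beside 0.04 over all genes and -0.10 over the 3822 bright genes, of which 24.8 percent were higher. Without Het_control 2 the count was 4 of 6 and the median -0.05, beside -0.02 over the bright genes, and after a repeated quantile normalization 4 of 6 and -0.04. Rhbg and Oat were among them, at -0.15 (SE 0.18) and -0.12 (SE 0.11), and at -0.04 and -0.07 without Het_control 2. The heterozygous controls enter both this comparison and the diet comparison in heterozygotes.

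Glul was the 1 member whose genotype groups did not overlap on the high-fat diet, beside 3.75 percent of all genes. Its 4 heterozygous values ended at 13.2403 and its 4 wild-type values began at 13.2407, a gap far smaller than the spread within either group. The difference was -0.10 (SE 0.05, 95 percent interval -0.21 to 0.02, adjusted p = 0.9996, limma). A second probe set with the symbol Glul, not used in the test, read 13.18, 13.22, 13.12 and 13.14 in wild type on the same diet. In heterozygotes it read 13.00, 12.94, 13.04 and 13.12, so it too was mostly lower there. Its groups overlapped only narrowly, with the lowest wild-type value at 13.1205 and the highest heterozygous value at 13.1216.

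**Figure D3:**
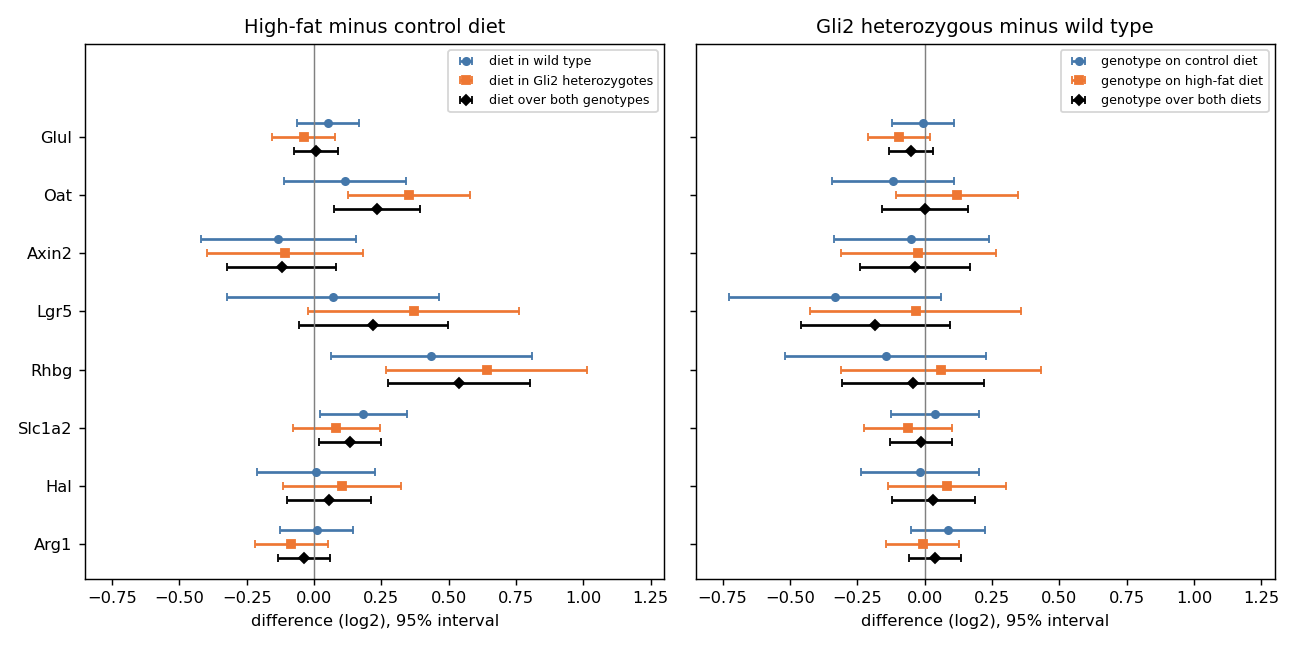
Differences of the 8 zonation genes (log2) with 95 percent intervals; the left panel is high-fat minus control diet in wild type, in heterozygotes and over both, and the right panel is Gli2 heterozygous minus wild type on each diet and over both. Of the diet intervals over both genotypes, those of Oat, Rhbg and Slc1a2 lie above 0, and every genotype interval includes 0.

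Within groups, Oat and Rhbg varied together. Across the 16 livers, after each group mean was removed, Pearson's r was 0.743 and Spearman's rho 0.685 (permutation p = 0.00099 and p = 0.00475, two-sided; adjusted over the 28 pairs of measured members 0.0277 and 0.133). It was the 1 pair of 28 whose adjusted p for Pearson's r was under 0.05. The 16 residuals are tied by the 4 group means removed, so permutation p-values over them can be too small. Whether the pair would still pass with an allowance for this was not tested. Without the 2 animals farthest from the median of Oat (WT_HFD 2 and WT_control 4) r was 0.705, and without Het_control 2 it was 0.709. The animals were mostly high or low in both genes whatever their genotype and diet, and all values of an animal share 1 array.

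Other pairs did not pass. Hal and Arg1 had r = 0.612 and rho = 0.568 (permutation p = 0.0120 and p = 0.0242; adjusted 0.116 and 0.226), and r was 0.541 without WT_HFD 2 and Het_control 4. Oat and Slc1a2 had r = 0.605 and rho = 0.503 (permutation p = 0.0124 and p = 0.0501; adjusted 0.116 and 0.351), and r was 0.25 without WT_HFD 2 and WT_control 4, so that relation rests on those animals. Glul and Rhbg had r = 0.588 and rho = 0.577 (permutation p = 0.0174 and p = 0.0220; adjusted 0.121 and 0.226), with r = 0.532 without WT_control 3 and Het_HFD 2. Of the 15 pairs of pericentral genes 9 had r above 0, and of the 12 pairs across zones 8 did.

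**Figure D4:**
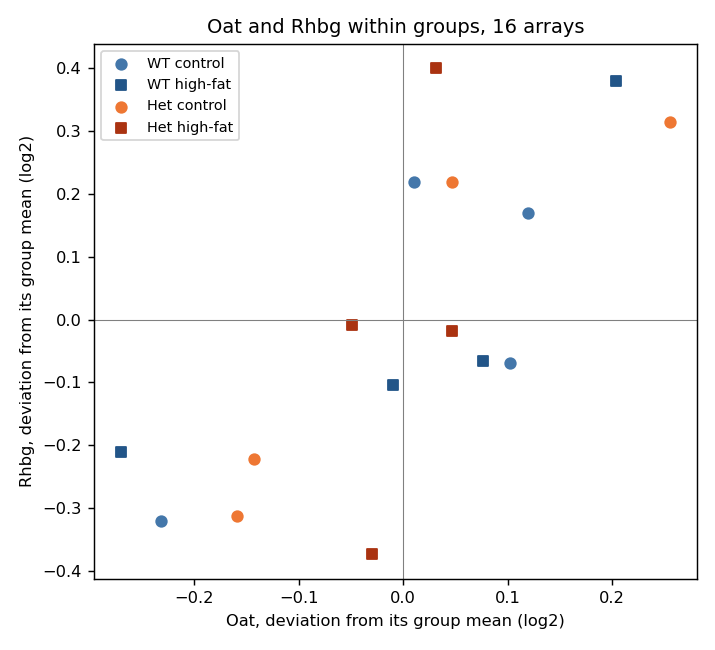
Deviation of Rhbg from its group mean against that of Oat (log2) in 16 livers, with symbols by genotype and diet. Animals low in Oat tend to be low in Rhbg (Pearson's r = 0.743), and the heterozygous high-fat animals cover a wide range of Rhbg over a narrow range of Oat.

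The genes whose pattern across the 15 livers other than Het_control 2 was most like that of Hal were Ang4 (r = 0.891, and 0.382 over all 16), Amdhd1 (0.881 and 0.803), Uqcc3 (0.856 and 0.355), Arfrp1 (0.847 and 0.848) and Gsta4 (0.845 and 0.679). Amdhd1 is the imidazolonepropionase, a later step of the histidine breakdown that Hal opens. For Glul they were Celsr2 (0.953 and 0.05), Enox1 (0.924 and -0.11), Ttc9b (0.876 and -0.05), Ntrk3 (0.872 and 0.473) and Cdca3 (0.867 and 0.277). For the mean of the 6 pericentral genes they were Olfr113 (0.846 and 0.103), Olfr2 (0.835 and 0.08), Gm6588 (0.831 and 0.200), Agmo (0.830 and 0.684) and Mterf2 (0.819 and 0.837). The r of most of the genes nearest to Hal, to Glul and to the pericentral mean fell once Het_control 2 was included. Those of Arfrp1 and Mterf2 did not fall. These are the highest of 19938 correlations of animals that share their arrays, given as a description.

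The promoters were read because the pericentral programme is driven by Wnt, whose nuclear partners of the TCF/LEF family bind the core letters CTTTGAT or CTTTGTT. RefSeq windows of assembly GRCm38.p6, from 250 bases before to 50 after the transcription start, were at hand for 5 of the 8 measured genes (Glul, Oat, Axin2, Slc1a2 and Hal) and for Ass1. The core letters, searched on both strands, occurred in 2 of these 6 windows, those of pericentral Slc1a2 and periportal Hal, and in 9.33 percent of all 32851 windows of the same length. Below are the 250 bases before the start for both, with the core letters in capitals, and for Oat, the gene whose heterozygous diet groups separated, which held none. Slc1a2 is at chr2:102706188-102706437 on the plus strand, Hal at chr10:93488518-93488767 on the plus strand and Oat at chr7:132576399-132576648 on the minus strand.
Slc1a2: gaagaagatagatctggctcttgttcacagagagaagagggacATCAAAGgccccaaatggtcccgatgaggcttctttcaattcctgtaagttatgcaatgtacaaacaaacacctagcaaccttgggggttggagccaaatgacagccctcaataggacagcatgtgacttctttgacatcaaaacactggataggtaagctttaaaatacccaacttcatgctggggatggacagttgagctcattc
Hal: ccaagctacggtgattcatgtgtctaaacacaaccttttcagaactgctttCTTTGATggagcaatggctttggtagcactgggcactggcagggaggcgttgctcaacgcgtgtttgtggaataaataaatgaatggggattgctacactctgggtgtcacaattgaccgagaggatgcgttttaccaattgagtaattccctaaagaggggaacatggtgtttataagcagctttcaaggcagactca
Oat: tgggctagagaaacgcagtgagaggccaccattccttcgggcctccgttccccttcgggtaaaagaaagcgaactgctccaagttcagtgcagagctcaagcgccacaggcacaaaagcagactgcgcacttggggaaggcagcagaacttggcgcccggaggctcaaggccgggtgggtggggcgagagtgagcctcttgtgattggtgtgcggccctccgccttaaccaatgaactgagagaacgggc
The match in Slc1a2 lies at -207 to -201 relative to the start, with CTTTGAT on the minus strand, and the match in Hal at -199 to -193, with CTTTGAT on the plus strand. The 5 letters CCAAT, on either strand, occurred in the windows of Glul, Oat, Axin2 and Hal, 4 of 6, and in 37.4 percent of all windows. Oat, printed above, holds CCAAT in each orientation, at -47 to -43 and at -22 to -18. The matches are a description of letters and not of binding.

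Wider lists place the members among other zoned genes. Of 25 other pericentral hepatocyte genes 21 were measured, and 2 were called with diet over both genotypes, beside 1.86 percent of all genes. Aldh1a1, a retinaldehyde dehydrogenase, rose from 12.63 ± 0.21 to 12.90 ± 0.11 (SD, n = 4) in wild type and from 12.34 ± 0.39 to 13.01 ± 0.18 in heterozygotes, a difference over both of 0.47 (SE 0.11, adjusted p = 0.0377, limma). Cib3, a calcium-binding protein, fell by 0.53 (SE 0.13, adjusted p = 0.0452, limma), from 7.85 ± 0.49 to 7.31 ± 0.05 in wild type and from 7.77 ± 0.28 to 7.26 ± 0.15 in heterozygotes. These levels lie well below the 10 that marks bright genes. Whether Cib3 stood above the array background was not tested. Both calls depended on the setting: Aldh1a1 was called in 13 of 25 others (adjusted p = 0.00273 to 0.0872, limma) and Cib3 in 11 (adjusted p = 0.00574 to 0.0956, limma). Without Het_control 2, 4 genes of the list were called higher (Aldh1a1, Lect2, Slc13a3 and Sult5a1) and 1 lower (Cib3). In that fit 712 of all 19938 genes were called, against 371 as reported.

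In value 19 of these 21 genes were higher on the high-fat diet, with a median of 0.13. Of the bright genes 76.9 percent were, as given above. After a repeated quantile normalization the counts were 13 of 21 with a median of 0.04, beside 52.6 percent and 0.01 for the bright genes. Without Het_control 2 they were 17 of 21 with a median of 0.10, beside 67.1 percent and 0.04. Members such as Cyp2e1, the main ethanol-oxidising cytochrome, differed by 0.02 (adjusted p = 0.700, limma), and Cyp1a2, another pericentral cytochrome, by 0.24 (adjusted p = 0.101, limma); these 2 are named as familiar markers after their values were seen. By genotype, 15 of 21 were lower in heterozygotes on the control diet (median -0.09), beside a median of -0.10 over the bright genes, and the median was -0.05 without Het_control 2 and -0.02 after the quantile normalization. On the high-fat diet 17 of 21 were lower (median -0.08), beside 46.2 percent higher and a median of -0.01 over the bright genes. None was called on either diet.

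Of 28 other periportal genes 25 were measured and 21 had the higher value on the high-fat diet, with a median of 0.08. After a repeated quantile normalization 14 of 25 did, with a median of 0.03. Nags, which makes the N-acetylglutamate that switches on the urea cycle, was the 1 gene called, beside 1.86 percent of all genes. It rose by 0.27 (SE 0.06, adjusted p = 0.0239, limma), from 10.43 ± 0.14 to 10.59 ± 0.06 in wild type and from 10.41 ± 0.08 to 10.78 ± 0.12 in heterozygotes (SD, n = 4). It was called in 16 of 25 other settings, with an adjusted p of 0.00320 to 0.159 (limma), and without Het_control 2 the list had 2 calls, Nags and Otc. That fit called 712 of all 19938 genes, against 371 as reported.

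Ammonia and glutamine handling joins both zones. Of 32 genes 30 were measured, 10 of which are also in the periportal list. On the high-fat diet 21 of 30 were higher in value (median 0.07), beside 76.9 percent of the bright genes, and 16 of 30 were after a repeated quantile normalization (median 0.02). As reported 2 were called, beside 1.86 percent of all genes. Nags was one, and Car5a, the mitochondrial carbonic anhydrase that supplies bicarbonate to the urea cycle, was the other. Car5a rose by 0.28 (SE 0.05, adjusted p = 0.0158, limma), from 11.18 ± 0.09 to 11.44 ± 0.10 in wild type and from 11.18 ± 0.13 to 11.48 ± 0.06 in heterozygotes (SD, n = 4). It was called in 24 of 25 other settings; after the repeated quantile normalization the adjusted p was 0.0508 (limma). Without Het_control 2, 4 genes of the list were called (Car5a, Nags, Otc and Slc25a13), beside 712 of all 19938 genes, against 371 as reported. By genotype on the high-fat diet 25 of 30 were higher in value (median 0.04), with none called. Of all genes 53.8 percent and of the bright genes 46.2 percent were higher there, with medians of 0.01 and -0.01. The periportal list had 18 of 25 higher (median 0.03).

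The Wnt and R-spondin pathway showed no common direction. Of 40 genes 38 were measured: 17 had the higher and 21 the lower value on the high-fat diet, with a median of -0.03. In this comparison 1 was called higher and 1 lower, beside 1.86 percent of all genes. Fzd4, a Wnt receptor, rose by 0.51 (SE 0.10, adjusted p = 0.0181, limma), from 9.97 ± 0.16 to 10.32 ± 0.32 in wild type and from 9.54 ± 0.17 to 10.21 ± 0.19 in heterozygotes (SD, n = 4). It was called in all 25 other settings, with an adjusted p of 0.00322 to 0.0484. Ccnd1, cyclin D1, a cell-cycle gene that Wnt can induce, fell by 0.34 (SE 0.07, adjusted p = 0.0259, limma) and was called in 18 of 25 (adjusted p = 0.00577 to 0.0635, limma). The ligands and R-spondins of the central vein were not called: Wnt2 differed by 0.00 (adjusted p = 0.985, limma), Wnt9b by -0.11 (adjusted p = 0.212, limma) and Rspo3 by 0.10 (adjusted p = 0.291, limma). These 3 are named for their role, after their values were seen.

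In heterozygotes alone the wider lists gave Aldh1a1 (0.67, adjusted p = 0.0404, limma), Nags (0.37, adjusted p = 0.0352, limma), Car5a (0.30, adjusted p = 0.0477, limma) and Fzd4 (0.67, adjusted p = 0.0342, limma). In this comparison 2.22 percent of all genes were called, and 174 of 19938 genes without Het_control 2. Without Het_control 2 Nags remained (adjusted p = 0.0344, limma), and Fzd4 (0.0559), Aldh1a1 (0.0719) and Car5a (0.0764) had an adjusted p above the threshold. After a repeated quantile normalization Aldh1a1 (0.0430), Fzd4 (0.0431) and Ccnd1 (0.0388) were called, and Nags and Car5a were not. That fit called 371 of all genes in this comparison. Over the 26 other settings Nags was called in 19, Fzd4 in 18, Aldh1a1 in 12 and Car5a in 8. In wild type none was called. The smallest p-values there belonged to Slc13a3 (0.56, adjusted p = 0.325, limma) among pericentral, Pigr (0.27, adjusted p = 0.364, limma) among periportal, Sfrp1 (-0.36, adjusted p = 0.393, limma) among Wnt and Car5a (0.26, adjusted p = 0.426, limma) among ammonia genes. By genotype on the control diet the Wnt antagonists Notum (0.31) and Wif1 (0.30) had the smallest p-values of their list, both with an adjusted p of 0.279 (limma).

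**Figure D5:**
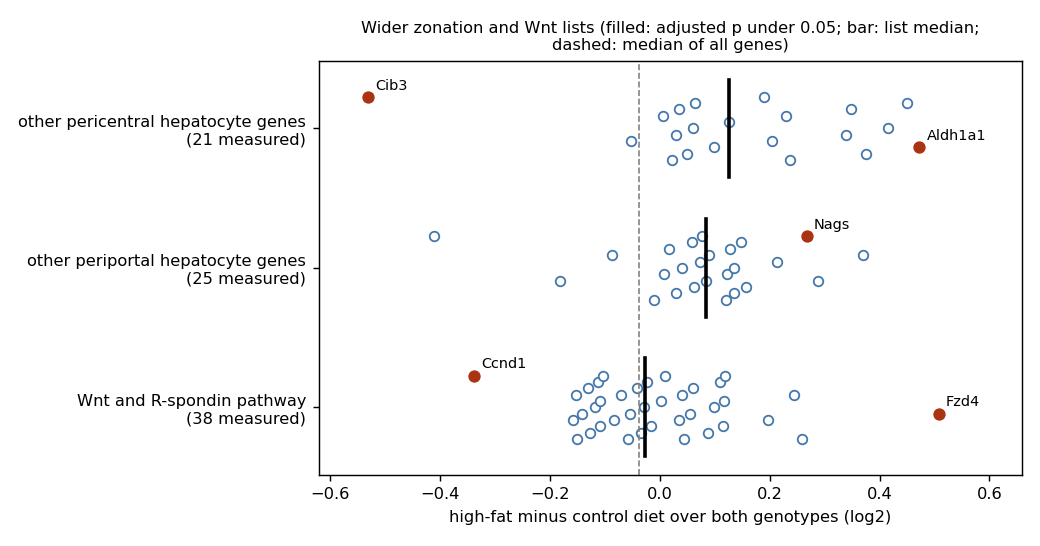
High-fat minus control diet over both genotypes (log2) for the measured genes of 3 wider lists; filled points have an adjusted p under 0.05, bars mark each list's median and the dashed line the median of all genes (-0.04). Aldh1a1, Nags and Fzd4 lie to the right and Cib3 and Ccnd1 to the left, and most open points lie near 0.

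Markers of other liver cells differed in value in the same comparisons. Of 10 macrophage markers all 10 had the higher value on the high-fat diet in heterozygotes, with a median of 0.47. Of the bright genes 76.5 percent were higher in this comparison, with a median of 0.13. As reported 5 markers were called (C1qb, Cd68, Csf1r, Vsig4 and Adgre1), beside 2.22 percent of all genes. Without Het_control 2 it was 3 (C1qb, Cd68 and Vsig4), beside 174 of 19938 genes. The mean log2 level of the 10 macrophage markers ranged over animals from 9.78 to 10.21 in heterozygous controls and from 10.29 to 10.65 in high-fat heterozygotes. In wild type it ranged from 10.13 to 10.31 on the control diet and from 9.91 to 10.48 on the high-fat diet. Of 15 endothelial markers 13 had the lower value in heterozygous controls than in wild-type controls, with a median of -0.33 (-0.20 without Het_control 2), beside a median of -0.10 over the bright genes, and none was called. Their mean level ranged from 9.61 to 10.03 in heterozygous controls and from 9.99 to 10.13 in wild-type controls. With diet in wild type 0 of the 15 endothelial markers had the higher value, with a median of -0.12, and none was called. Of the bright genes 64.6 percent were higher there. After a repeated quantile normalization it was again 0 of 15 (median -0.16), beside 48.7 percent of the bright genes. The part of these marker levels in the differences of Rhbg, Oat and Lgr5 was not tested.

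Among the remaining lists, 1 of 11 stellate cell markers was called with diet in heterozygotes, Lrat (0.96, adjusted p = 0.0465, limma), and 1 of 15 endothelial markers, Thbd (-0.32, adjusted p = 0.0451, limma). In this comparison 2.22 percent of all genes were called. Without Het_control 2 the adjusted p of Lrat and Thbd was 0.0886 and 0.0672 (limma). None of the 8 bile duct, 9 lymphocyte and 9 pancreas and gut markers measured was called in any comparison as reported. In value all 9 lymphocyte markers were higher in heterozygotes than in wild type on the high-fat diet (median 0.15), beside 53.8 percent of all genes. After a repeated quantile normalization all 9 were again (median 0.13), beside 50.1 percent of all genes. With diet over both genotypes, Sox9 of the bile duct markers was called lower without Het_control 2 (adjusted p = 0.0405, limma) and after a repeated quantile normalization (adjusted p = 0.0460, limma), and Fabp2 of the gut markers was called higher without Het_control 2 (adjusted p = 0.0464, limma). Of all 19938 genes, 712 were called without Het_control 2 and 274 after that normalization, against 371 as reported. Of the 9 hepatocyte markers none was called in any comparison.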

How the data were processed

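The deposited values are log2 expression levels, 1 per probe set, which the authors computed by RMA using the Expression Console of Affymetrix (submitters' processing notes, without versions). RMA equalises probe intensities between arrays, so a shift of all transcripts would be removed. Of 35556 probe sets 21789 carry 1 gene symbol and gave 19938 genes. Groups were compared with limma 3.58.1 in R 4.3.3 (statmod 1.5.0), with all 16 arrays in 1 fit and a mean per group. The comparisons were diet per genotype, genotype per diet, both averages, their interaction and any difference among the 4 groups. P-values treat animals as independent, and 4 arrays per group limit the precision. Correlations used residuals from group means and 100000 permutations over 28 pairs, the pairs possible among the 8 measured members. The members and lists were chosen with earlier results of these data known. Of each wider list, the genes called are named, or the 2 with the smallest p in a comparison. Replicate numbers are accession order and pair no animals. The alternatives tried were normalization, moderation, array weights, a filter on dim genes, probe set choice, the arrays fitted, the title number as a block, and leaving out each array. No array was an outlier by Dixon's criterion (0.829 for 4 arrays) in the 32 sets of 1 member in 1 group.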

Additional observations from a re-analysis of the deposited data

How the results depend on the processing

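Diet over both genotypes called 1 member, Rhbg. The count was 0 after repeated quantile normalization and when all probe sets were tested, 3 with array weights or when the title number was a random block (Rhbg, Oat and Slc1a2 in each), and 0 to 2 when each array was left out. Diet in heterozygotes called 0 members, 2 with the title number as a block (Rhbg and Oat), 1 with arrays centred on the hepatocyte markers (Rhbg), and 0 to 2 leaving out an array. Any difference among the 4 groups called 0, 2 with the title number as a block (Rhbg and Oat), and 0 to 1 leaving out an array. Centring on array medians and on hepatocyte markers was chosen after seeing the data. The title number gave a within-number correlation of -0.37 and its meaning is not stated. The causes were not tested. The highest counts leaving out an array came without Het_control 4. Over all genes, diet over both genotypes called 371 genes as reported, 2105 with array weights, 3703 with the title number, 564 with hepatocyte centring, 146 with all probe sets and 104 to 1754 leaving out an array. Diet in heterozygotes called 442 as reported, 1067 with array weights, 6938 with the title number, 801 with hepatocyte centring, 95 with all probe sets, 7 with the 2 groups alone and 45 to 3446 leaving out an array. Diet in wild type called 0 as reported, 219 with array weights, 40 with the title number, 6 with the 2 groups alone and 0 to 7 leaving out an array. Any difference called 65 as reported, 833 with array weights, 4441 with the title number, 100 with hepatocyte centring, 0 with all probe sets, 20 after quantile normalization, 32 with median centring and 6 to 878 leaving out an array. Genotype comparisons called at most 7 genes outside the leave-one-out fits, and up to 18 within them.

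Member differences that changed sign were small and none of them was called. Under repeated quantile normalization the sign changed for Hal -0.0202 and Arg1 -0.0157 (diet in wild type), Slc1a2 -0.041 (diet in Gli2 heterozygotes), Glul 0.0493 and Hal 0.0711 (genotype on control diet), Arg1 0.0064 (genotype on high-fat diet), Glul -0.0336 and Hal -0.0078 (diet over both genotypes), Slc1a2 0.0508 (genotype over both diets), Axin2 -0.0033 (diet by genotype interaction). Under the mean of all probe sets the sign changed for Glul 0.0136 (diet in Gli2 heterozygotes). Under array weights the sign changed for Glul 0.0021 and Hal 0.039 (genotype on control diet), Glul -0.0078 (diet over both genotypes), Rhbg 3e-04 and Slc1a2 0.0038 (genotype over both diets). Under the title number as a block the sign changed for Hal 0.0334 (genotype on control diet), Axin2 -0.0415 (diet by genotype interaction). Under centring on hepatocyte markers the sign changed for Axin2 0.003 and Arg1 0.0185 (genotype on high-fat diet), Slc1a2 0.0025 (genotype over both diets). Under median centring the sign changed for Oat -0.0228 (genotype over both diets). Where leaving out 1 array changed a sign, the ranges over the 16 arrays were as follows. For diet in wild type, Lgr5 -0.0356 to 0.1833, Hal -0.0585 to 0.0977 and Arg1 -0.0274 to 0.0526. For genotype on control diet, Glul -0.0313 to 0.0205, Axin2 -0.1628 to 0.0687, Slc1a2 -0.0191 to 0.103 and Hal -0.0819 to 0.0663. For genotype on high-fat diet, Lgr5 -0.1463 to 0.0726, Rhbg -0.0728 to 0.1872, Hal -0.0098 to 0.1236 and Arg1 -0.0508 to 0.0292. For diet over both genotypes, Glul -0.0073 to 0.0189. For genotype over both diets, Oat -0.0444 to 0.0346, Axin2 -0.093 to 0.0227, Rhbg -0.1089 to 0.0211, Slc1a2 -0.0412 to 0.0199 and Hal -0.0134 to 0.0739. For diet by genotype interaction, Axin2 -0.092 to 0.1395. No paired analysis was possible because the replicate numbers are accession order, and of the numbers in the sample titles 1 at most is shared by any 2 groups.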
